A study of Mus musculus with 6 samples.

Results

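Chemokines are small secreted proteins that direct the movement of leukocytes, and their receptors are G protein-coupled receptors on the cells that follow them. The genes were taken by name from the array's own annotation. They are the Ccl, Cxcl, Xcl and Cx3cl1 ligands and the Ccr, Cxcr, Xcr and Cx3cr1 receptors, 54 of the 36163 different gene names on the array (35 ligands and 19 receptors). They were measured by 68 of the 55681 non-control probes, each 60 bases long. Of the genes, 43 had 1 probe, 8 had 2 and 3 had 3.

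All 6 mice were male, of the strain C57BL/6J, and all were irradiated, so the effect of radiation itself was not measured. The 3 mice of the VND3207 group received 100 mg/kg of VND3207, known here by its code name alone, into the stomach. The 3 mice of the vehicle group received the vehicle alone. Radiation (9 Gy) was given 0.5 h after dosing, and total RNA of the whole jejunum was taken 6 h after radiation. The comparison asks how a dose of VND3207 ahead of radiation altered transcripts of the irradiated gut. In such bulk tissue, fewer cells of a type and less RNA per cell cannot be told apart.

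In the small intestine, Ccl25 from epithelium guides lymphocytes that carry Ccr9 into the gut wall, and Ccl28 guides antibody-secreting cells that carry Ccr10. Cxcl13 with Cxcr5, and Ccl19 with Ccr7, organise Peyer's patches and lymphoid follicles. Cxcl9, Cxcl10 and Cxcl11 are induced by interferon gamma and attract T cells through Cxcr3, whereas Cxcl1, Cxcl2, Cxcl3 and Cxcl5 attract neutrophils through Cxcr2.

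Values below are log2 signals relative to the 75th percentile of the same array. A value of 0 is a signal at that percentile and a difference of 1 is 2-fold. Levels of different probes are not compared, because probes differ in how strongly they bind. The scanner software called 47 to 50 of the 68 chemokine and receptor probes well above background on the VND3207 arrays, and 52 or 53 on the vehicle arrays. Over all non-control spots the share was 58.8% to 61.4% on the VND3207 arrays and 66.7% to 70.0% on the vehicle arrays. All VND3207 arrays lay on 1 slide and were scanned in 1 run, and all vehicle arrays lay on another slide in another run, so in every comparison slide, scan and treatment cannot be told apart. All 7 markers of intestinal epithelium looked at, among them Vil1 and Fabp2, were well above background on all 6 arrays, as the labelled tissue would have them.

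Results for several genes turn on which probe was read. The stretches of 30 bases printed here belong to the 3 probes whose signal passed the test, and to the other probes of the same genes, together with the probes of Ccl25, whose differences had opposite signs. Positions are mm9 coordinates as the file headers give them. No gene annotation of that build was used, so exons, introns and untranslated regions were not assigned. The Cxcl11 probes lie on the minus strand of chromosome 5, at chr5:92788567-92788626 and chr5:92788640-92788699. Capitals in the first mark 20 bases that were found in 15 of the 32851 promoter windows of RefSeq (GRCm38.p6), belonging to 14 genes.
Cxcl11, probe A_55_P2160387, bases 15 to 44: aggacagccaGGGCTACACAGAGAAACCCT
Cxcl11, probe A_55_P2044413, bases 1 to 30: tatacaccttaatttcagcacttgaaaggc
Ccr8, probe A_55_P2103097, chr9:120003941-120004000, bases 1 to 30: aggcagctgtcctcgaaccagcgatcttcc
Ccr8, probe A_55_P2136348, chr9:120003293-120003352, bases 1 to 30: atgttcttcatcaccctaatgagtgtggac
Ccr3, probe A_52_P661044, chr9:123945225-123945284, bases 1 to 30: accggccctcacataccaaatagaggatgt
Ccl25, probe A_51_P161265, chr8:4359916-4359975, bases 1 to 30: gaggaacgagaggatagtgagtgtgtgaga
Ccl25, probe A_55_P1965979, chr8:4357861-4357920, bases 1 to 30: gatctactatcagcaaacagaaagtgtctt
Ccl25, probe A_55_P2027852, chr8:4327833-4327892, bases 1 to 30: aggcagaaggaaaatcaagtgggttccatc

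Across the family, few signals separated the groups. A probe was tested where 3 or more of the 6 arrays had it well above background, which left 52 probes of 41 genes (27 ligands and 14 receptors). With VND3207, 0 of these were higher and 3 were lower at an adjusted p under 0.05 (limma, adjusted over all probes by the Benjamini-Hochberg method). Without vehicle replicate 2, 1 of the 52 was lower, a Cxcl11 probe. In the deposited value table that probe was lower and 2 probes were higher, for Ccl25 and Ccl3. Scaling to the array median turned the direction of the calls, with 10 probes higher, for Ccl25, Ccl27a, Ccl28, Ccl3, Ccr9, Cx3cr1, Cxcl12, Cxcr7 and both Cxcr6 probes, and 2 lower, for Cxcl11 and Ccr8. At an unadjusted p under 0.05, 2 probes were higher and 5 were lower. The 3 lower probes read Cxcl11, an interferon-induced ligand, Ccr8, a receptor of regulatory and type 2 T cells, and Ccr3, the eotaxin receptor. Among all 36096 probes tested, 0.925% were called higher and 14.6% lower, so the share of the chemokine and receptor probes called lower was below the background. The median difference of the 52 probes was 0.09, against -0.06 over all probes tested, with 35 probes above 0 and 17 below. In 5 of the 52 probes every VND3207 array was above every vehicle array (9.41% of all probes tested), in 6 every VND3207 array was below (24.9%), and in 41 the groups overlapped. Of the 49 probes that did not pass, 41 had a 95% confidence interval within 1 of 0 on the log2 scale, that is, within a 2-fold change either way.

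**Figure D1:**
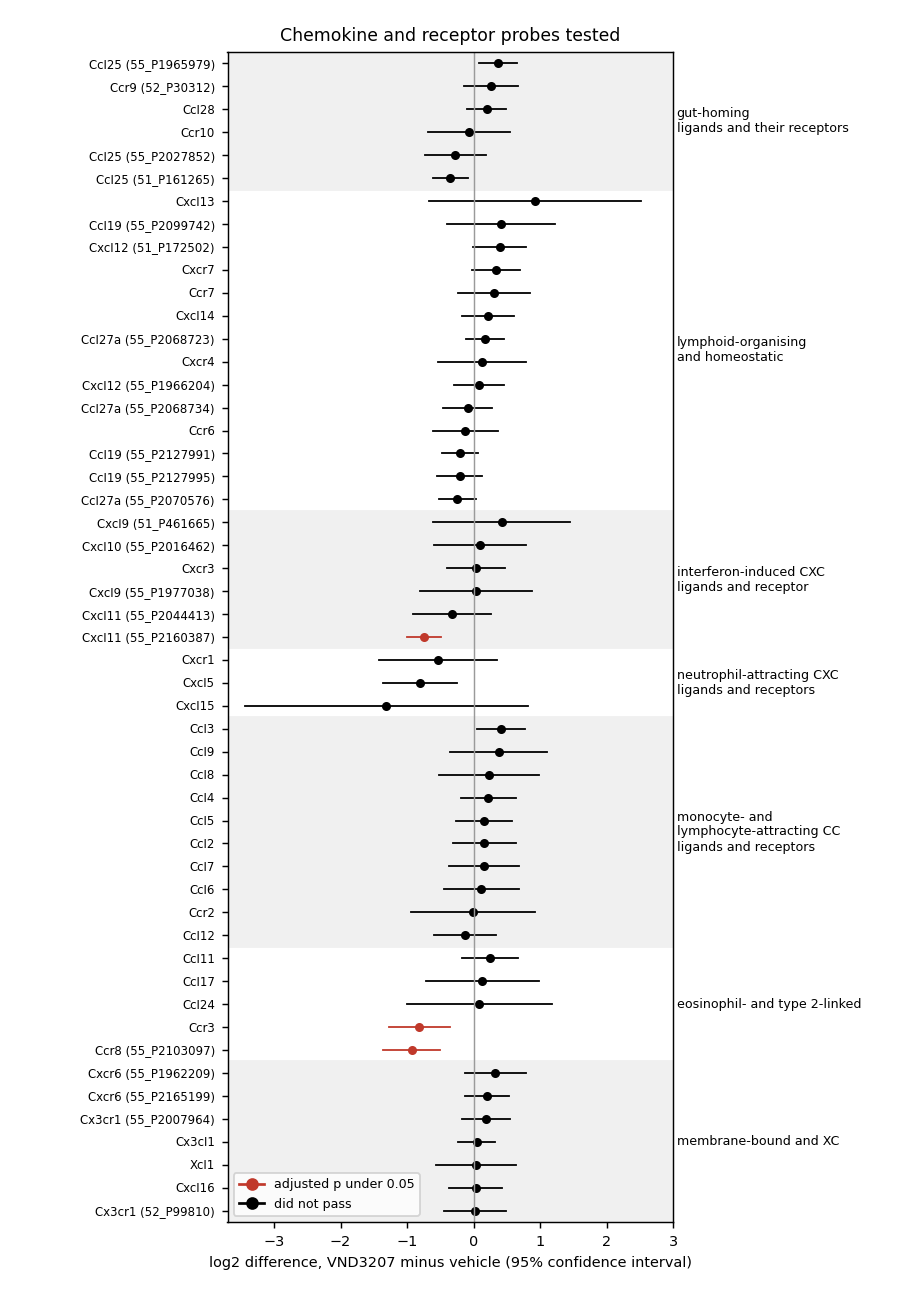
Each point is the log2 difference, VND3207 minus vehicle, of 1 chemokine or receptor probe, for 51 of the 52 tested, with its 95% confidence interval (n = 3 and 3). Probes are grouped by role from top to bottom, and the 3 red ones, for Cxcl11, Ccr8 and Ccr3, had a limma adjusted p under 0.05 and lay below 0.

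The calls depended on brightness. Of all probes dimmer than the 75th percentile 1.08% were called higher and 20.3% lower, and of brighter ones 0.662% higher and 4.57% lower. The Ccr8 and Ccr3 probes were among the dimmer ones. The called Cxcl11 probe, with a mean of 8.08, was among the brightest, and calls there were not counted apart. At a like level, the epithelial markers Vil1, Krt20 and Fabp2 fell by 0.36, 0.44 and 0.58 and were called lower. Lgals4 fell by 0.42 without passing. A correction that removes smooth trends of each array (with a spot's place, its brightness and the GC content of its probe) was known from earlier results of these data to move calls, and gave 2.78% of all probes higher and 6.62% lower. After it, 1 chemokine probe was higher, a Ccl25 probe, and 0 were lower. The median of the 52 probes was then 0.18, against 0.02 over all probes. Quantile normalization gave 1 higher (2.36% of all probes) and 2 lower (9.02%), with a median of 0.18, against 0.03 over all probes. Of all probes called, 5.97% were higher under the 75th percentile scaling, 20.7% after quantile normalization, 29.5% after the correction and 63.4% when each array was scaled to its median, which moved the median of all probes to 0.23.

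**Figure D2:**
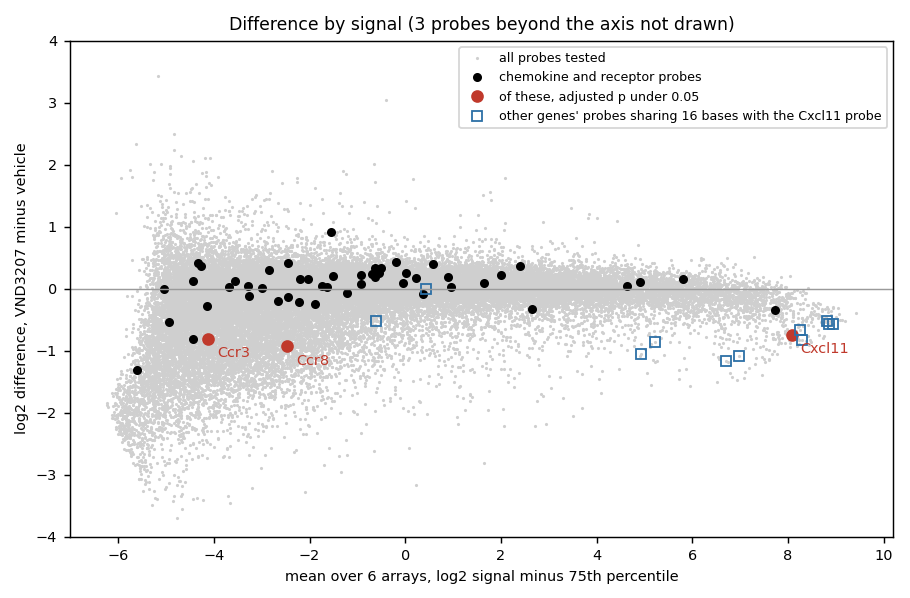
The log2 difference, VND3207 minus vehicle, of each probe tested (grey; 3 probes beyond the axis are not drawn) is plotted against its mean over the 6 arrays in log2 signal relative to the 75th percentile. Black and red points are the chemokine and receptor probes, red those with an adjusted p under 0.05. Blue squares are the 11 probes of other genes that share at least 16 bases with the bright Cxcl11 probe, and all of them lie below 0.

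Cxcl11 is a ligand of Cxcr3 and of the scavenging receptor Ackr3, and mice of C57BL/6 strains are known to carry a frameshift that removes the secreted protein, so a transcript signal does not stand for protein here. The signal of probe A_55_P2160387 was 7.68, 7.67 and 7.75 in the VND3207 mice, against 8.37, 8.60 and 8.38 in the vehicle mice. The groups did not overlap, and the signal fell by 0.75 (SE 0.11, limma adjusted p = 0.00695). The difference was -0.39 after quantile normalization (adjusted p = 0.0408) and -0.31 after the correction (adjusted p = 0.106). The other probe, A_55_P2044413, read 2.19, 2.37 and 2.88 in the VND3207 mice, against 2.47, 2.83 and 3.12 in the vehicle mice. Here the groups overlapped, and the difference of -0.33 (SE 0.24) did not pass (adjusted p = 0.466).

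The bright Cxcl11 probe is not specific in sequence. It shared a stretch of 20 bases with 22 promoter windows, against at most 2 for any other chemokine or receptor probe, and its capital letters match the B1 family of short interspersed repeats that is scattered through rodent genomes. No repeat annotation was used here. On the same strand, 11 probes of other genes or unnamed transcripts shared at least 16 bases with it. All 11 had a difference below 0 (median -0.66) and 8 were called lower. Of all probes tested 14.6% were called lower, and of those brighter than the 75th percentile 4.57%. The median level of the 11 was 6.97, far above that percentile. The share called lower among probes of like brightness was not computed, so neither share is a background for them. After quantile normalization the median was -0.45 with 4 called lower, and after the correction -0.38 with 3 called lower and 9 of 11 below 0. The 5 probes that shared at least 20 bases had a median of -0.66, with 4 called lower. For these 5 the median was -0.29 with 2 called lower after quantile normalization, and -0.05 with 1 called lower after the correction. Among the 11, Med16 fell by 0.83 (adjusted p = 0.00743) and Ndor1 by 0.66 (adjusted p = 0.0148), whereas Cdcp1 was at -0.01 (adjusted p = 0.98). Whether the fall was particular to probes with a shared stretch was not tested. The set of 11 was chosen after the Cxcl11 values were seen, and whether the bright probe read Cxcl11 or other transcripts was not tested.

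Ccr8 marks regulatory and type 2 T cells, and Ccl1 is a ligand of it. Its probe A_55_P2103097 read -2.84, -3.26 and -2.74 in the VND3207 mice, against -2.13, -1.80 and -2.10 in the vehicle mice. All VND3207 values were below all vehicle values, and the signal fell by 0.93 (SE 0.18, limma adjusted p = 0.0172). The call was lost after the correction (-0.51, adjusted p = 0.0761), in the deposited value table (-0.68, adjusted p = 0.0522) and without vehicle replicate 2 (-0.83, adjusted p = 0.0653). The other Ccr8 probe was not well above background on any array, so it gives no second reading of Ccr8. The Ccl1 probe was not well above background on any array either.

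Ccr3 is the receptor of the eotaxins on eosinophils and also binds Ccl28. Its probe read -4.84, -4.57 and -4.21 in the VND3207 mice, against -3.64, -3.59 and -3.93 in the vehicle mice. It was well above background on 1 of 3 VND3207 arrays and on 3 of 3 vehicle arrays. The groups did not overlap and the signal fell by 0.82 (SE 0.19, limma adjusted p = 0.0351). The probe met the filter mainly through the vehicle arrays, so the size of this difference rests partly on values not well above background. The call was lost after quantile normalization (-0.46, adjusted p = 0.156), with normexp (-0.22, adjusted p = 0.333), with no filter on dim probes (adjusted p = 0.053), after the correction (-0.32, adjusted p = 0.348), and on leaving out any 1 array other than VND3207 replicate 3, with an adjusted p of at most 0.122. Eosinophil markers gave no separation. Prg2, which encodes a granule protein, was at -3.05, -3.48 and -2.56 in the VND3207 mice, against -2.45, -2.71 and -2.72 in the vehicle mice, a difference of -0.40 (adjusted p = 0.367). Siglecf differed by -0.13 (adjusted p = 0.815), and the Epx probe was not well above background on any array. In this list of 7 eosinophil and mast cell markers, 0 of the 3 tested passed, the third being Kit, at 0.17 (adjusted p = 0.616). The summed linear signal was 1.36 to 2.01 times the 75th percentile on the VND3207 arrays and 1.41 to 1.83 times on the vehicle arrays. Most of it came from Siglecf and Kit, so it is not a reading of eosinophils alone.

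**Figure D3:**
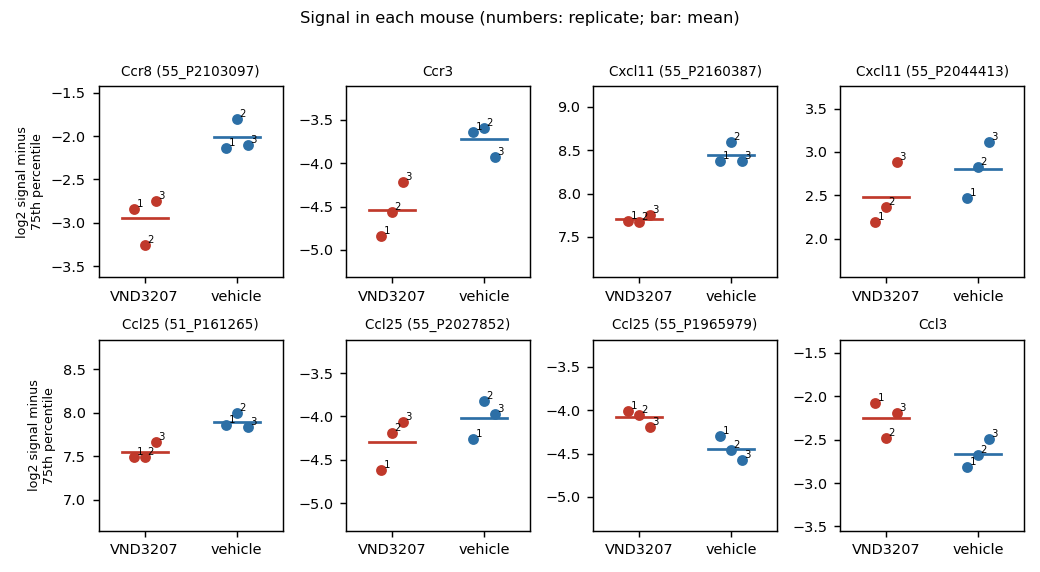
Each panel gives the log2 signal relative to the array's 75th percentile in the 3 VND3207 mice (red, left) and the 3 vehicle mice (blue, right) for 1 probe, with replicate numbers and a bar at the mean. The groups do not overlap for Ccr8, Ccr3, the first Cxcl11 probe, 2 Ccl25 probes and Ccl3, and overlap for the second Cxcl11 and the third Ccl25 probe. Panels have their own vertical ranges.

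The eotaxins themselves did not pass. Ccl11, which recruits eosinophils to the gut, was at 0.14, -0.02 and 0.27 in the VND3207 mice, against -0.31, -0.26 and 0.21 in the vehicle mice, a difference of 0.25 (SE 0.17, adjusted p = 0.432). After the correction it was -0.21 (adjusted p = 0.504), so its sign was not settled. Ccl24 was at 1.32, 1.22 and 2.49 in the VND3207 mice, against 1.53, 2.24 and 1.01 in the vehicle mice. Its spread within each group (SD 0.71 and 0.62) exceeded the difference of 0.08 (adjusted p = 0.932). Ccl17, a ligand of Ccr4, differed by 0.13 (SE 0.35, adjusted p = 0.858). Ccl22, the other ligand of Ccr4, and Ccl26 were not well above background on any array, and the Ccr4 probe was on 1 of 6.

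The gut-homing pair Ccl25 and Ccr9 showed no shift that all probes shared. Ccl25 probe A_51_P161265 read 7.48, 7.49 and 7.66 in the VND3207 mice, against 7.86, 7.996 and 7.83 in the vehicle mice, a difference of -0.35 (SE 0.11, adjusted p = 0.085). Probe A_55_P1965979 read -4.01, -4.05 and -4.20 in the VND3207 mice, against -4.30, -4.46 and -4.58 in the vehicle mice, a difference of 0.36 (SE 0.12, adjusted p = 0.104). Both pairs of groups were apart, in opposite directions. The third probe, A_55_P2027852, differed by -0.28 (SE 0.19, adjusted p = 0.424) with overlapping groups. Processing moved these values. Probe A_51_P161265 was at -0.03 after quantile normalization (adjusted p = 0.858), and A_55_P1965979 rose by 0.73 after quantile normalization (adjusted p = 0.0157) and by 0.72 after the correction (adjusted p = 0.0259). Epithelial markers were read beside the first of these probes, and 1 of the 7, Cdh1, lay above 0 (0.17, adjusted p = 0.356). Of 7 epithelial markers 3 were lower, beside 4.57% of all probes brighter than the 75th percentile. The share among probes as bright as these markers was not computed. Among the 3 was Fabp2, the intestinal fatty acid-binding protein gene, which fell by 0.58 (adjusted p = 0.0233). All 3 calls were lost after quantile normalization and after the correction, where Fabp2 was at -0.13 (adjusted p = 0.399) and -0.06 (adjusted p = 0.757). Their median was -0.36 and was -0.02 after quantile normalization, and their summed linear signal was 1365 to 1504 times the 75th percentile on the VND3207 arrays and 1804 to 2131 times on the vehicle arrays. Their part in the Ccl25 value was not tested.

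Ccr9, the homing receptor, was at -0.33, -0.73 and -0.19 in the VND3207 mice, against -0.54, -0.76 and -0.71 in the vehicle mice. The groups overlapped and the difference was 0.26 (SE 0.16, adjusted p = 0.392), which passed with scaling to the array median (0.56, adjusted p = 0.0432). A second Ccr9 probe was not well above background on any array. Ccl28, on a contig of chromosome 13 whose place is not settled in mm9, differed by 0.19 (SE 0.12, adjusted p = 0.371; 0.49 and adjusted p = 0.0267 with scaling to the array median), and its receptor Ccr10 by -0.07 (SE 0.25, adjusted p = 0.895).

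Among the interferon-induced ligands, Cxcl9 and Cxcl10 varied between mice more than between groups. Cxcl9 (probe A_51_P461665) was at 0.36, -0.61 and 0.32 in the VND3207 mice, against 0.06, -0.05 and -1.20 in the vehicle mice, a difference of 0.42 (SE 0.42, adjusted p = 0.601). The other Cxcl9 probe read -1.28, -2.12 and -1.48 in the VND3207 mice, against -1.32, -1.35 and -2.32 in the vehicle mice, with a difference of 0.03. Cxcl10 was at 0.08, -0.13 and 0.04 in the VND3207 mice, against 0.09, 0.35 and -0.74 in the vehicle mice, a difference of 0.09 (SE 0.28, adjusted p = 0.879). In all 3 probes vehicle replicate 3 was the lowest of the 6 mice and VND3207 replicate 2 the lowest of its group. Cxcr3, the shared receptor on T cells, differed by 0.04 (SE 0.18, adjusted p = 0.923).

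Genes of the interferon gamma pathway surround this axis. Of 18 tested, 0 were higher and 1 was lower, with a median of 0.15, beside 0.925% higher and 14.6% lower over all probes. The immunity-related GTPase gene Iigp1 fell by 0.67 (SE 0.15, adjusted p = 0.0283), a call lost after the correction (-0.57, adjusted p = 0.0589). Ifng itself was at -3.75, -4.39 and -3.63 in the VND3207 mice, against -4.59, -4.24 and -4.96 in the vehicle mice, a difference of 0.67 (SE 0.27, adjusted p = 0.174). After the correction it rose by 1.03 (adjusted p = 0.046). The transcription factor gene Irf1 differed by -0.07 (adjusted p = 0.837).

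The neutrophil-attracting group was near the limit of detection. Of its 7 probes 3 were tested and 0 passed. All 3 were detected on fewer VND3207 than vehicle arrays and met the filter mainly through the vehicle arrays, so the shared sign of their differences, below 0, is no support for a direction. Cxcl5, made by epithelium, was at -5.31, -4.44 and -4.80 in the VND3207 mice, against -4.16, -4.01 and -3.93 in the vehicle mice, and was well above background on 1 of 3 VND3207 and 3 of 3 vehicle arrays. The groups did not overlap, but the difference of -0.81 (SE 0.23) did not pass (adjusted p = 0.0656). Cxcl1 was at -6.03, -6.91 and -6.74 in the VND3207 mice, none well above background, against -5.50, -5.05 and -4.52 in the vehicle mice, 2 of them well above background. It was not tested, and it gives no bound on a fold because the vehicle mean lay under the detection limit averaged over the VND3207 arrays. Cxcl2, Cxcl3 and Cxcr2 were not well above background on any array. Cxcr1 differed by -0.53 (SE 0.36, adjusted p = 0.422), and was at -0.01 after the correction. Cxcl15, known from mouse lung, spanned -7.39 to -4.48 in the VND3207 mice and -5.71 to -3.80 in the vehicle mice, too wide a spread to separate the groups.
Neutrophil markers gave 0 calls of 5, with a median of 0.09 (0.46 after the correction). Their summed linear signal, nearly all of it from Csf3r, was 86.0 to 112 times the 75th percentile on the VND3207 arrays and 70.5 to 110.1 times on the vehicle arrays. The S100a8 probe differed by 0.37 (adjusted p = 0.662).

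The CC ligands that attract monocytes, macrophages and effector T cells lay slightly above 0 without passing. Of 11 probes tested 9 were above 0 and 0 passed, with a median of 0.16 (0.33 after quantile normalization and 0.30 after the correction). Ccl3 was at -2.08, -2.48 and -2.20 in the VND3207 mice, against -2.82, -2.68 and -2.49 in the vehicle mice. The lowest VND3207 value was just above the highest vehicle value, and the difference of 0.41 (SE 0.15) did not pass (adjusted p = 0.138). Ccl3 passed in the deposited value table (0.64, adjusted p = 0.0476) and with scaling to the array median (0.71, adjusted p = 0.0249). Ccl4, a ligand much like Ccl3, differed by 0.22 (SE 0.17, adjusted p = 0.49), and Ccl5, a product of activated T cells, by 0.16 (SE 0.17, adjusted p = 0.635).

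The monocyte ligands were alike. Ccl2, the main ligand of Ccr2, was at -1.54, -2.22 and -2.08 in the VND3207 mice, against -1.999, -2.22 and -2.10 in the vehicle mice, a difference of 0.16 (SE 0.19, adjusted p = 0.676). Ccl7 differed by 0.15 (adjusted p = 0.714), Ccl8 by 0.23 (adjusted p = 0.697) and Ccl12 by -0.13 (adjusted p = 0.734). The myeloid ligands Ccl6 and Ccl9, which mice have and humans lack, differed by 0.11 (adjusted p = 0.808) and 0.37 (adjusted p = 0.505). Ccr2 was well above background on 3 of 6 arrays and differed by -0.01, and Ccr1 on none. Macrophage and dendritic cell markers gave 0 calls of 9, with a median of 0.27 and a summed linear signal of 21.7 to 33.4 times the 75th percentile on the VND3207 arrays and 20.2 to 27.5 times on the vehicle arrays.

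Among lymphoid-organising genes, 1 mouse given VND3207 stood apart. Cxcl13, which draws B cells into follicles, was at 0.35, -1.40 and -2.26 in the VND3207 mice, against -2.25, -2.28 and -1.53 in the vehicle mice. The difference of 0.92 had an SE of 0.66 (adjusted p = 0.445), and VND3207 replicate 1 was the highest of the 6. Without that mouse the difference was 0.20 (adjusted p = 0.816). Its receptor Cxcr5 was well above background in that mouse alone, at -4.30, with -7.08 and -6.91 in the other VND3207 mice, against -6.71, -6.02 and -6.01 in the vehicle mice. Ccr7, the receptor that guides T cells and dendritic cells into lymphoid tissue, was at -2.19, -2.87 and -3.02 in the VND3207 mice, against -2.94, -3.01 and -3.04 in the vehicle mice. The Ccl19 probe A_55_P2099742 read -3.40, -4.46 and -4.53 in the VND3207 mice, against -4.78, -4.59 and -4.25 in the vehicle mice. VND3207 replicate 1 was highest in all 4. The other 2 Ccl19 probes did not show this mouse apart, with differences of -0.20 and -0.21, and mouse chromosome 4 is known to carry near-identical copies of Ccl19 and Ccl27a, so reads of these probes are uncertain.

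Markers of B and plasma cells did not all follow that mouse. Ms4a1, which encodes CD20, was well above background in VND3207 replicate 1 alone, at -3.27, with -7.00 and -6.85 in the other VND3207 mice, against -6.53, -7.24 and -6.08 in the vehicle mice. Cd79a, a part of the B cell receptor, was at -1.44, -2.21 and -1.26 in the VND3207 mice, against -1.04, -1.19 and -1.35 in the vehicle mice, so replicate 1 was below all vehicle mice. Jchain, of plasma cells, was at 5.62, 5.39 and 6.05 in the VND3207 mice, against 6.19, 5.94 and 5.90 in the vehicle mice, and replicate 1 was again below the vehicle mice. The summed linear signal of the 5 B and plasma cell markers, most of it from Jchain, was 43.4 to 68.2 times the 75th percentile on the VND3207 arrays, with 51.2 in replicate 1, and 61.2 to 74.9 times on the vehicle arrays. Their part in the Cxcl13 value was not tested.

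**Figure D4:**
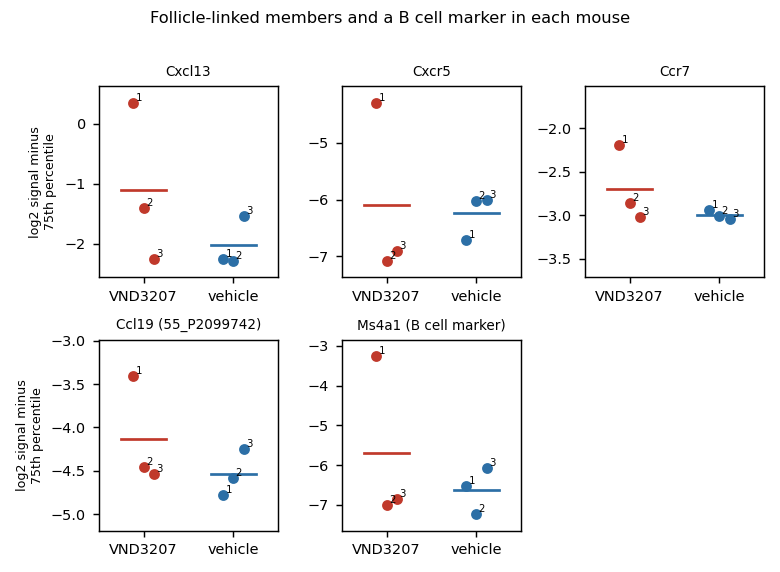
Log2 signal relative to the array's 75th percentile in the 3 VND3207 mice (red, left) and the 3 vehicle mice (blue, right) for Cxcl13, Cxcr5, Ccr7, 1 Ccl19 probe and the B cell marker Ms4a1, with replicate numbers and a bar at the mean. VND3207 replicate 1 is the highest of the 6 mice in each panel, and panels have their own vertical ranges.

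The stromal ligand Cxcl12 holds haematopoietic and lymphoid cells in place through Cxcr4, and Cxcr7 (now Ackr3) scavenges it. Cxcl12 probe A_51_P172502 read 0.74, 0.84 and 0.76 in the VND3207 mice, against 0.39, 0.09 and 0.68 in the vehicle mice. The groups were apart, yet the difference of 0.39 (SE 0.16) did not pass (adjusted p = 0.191; with scaling to the array median 0.69, adjusted p = 0.0314), and the other Cxcl12 probe differed by 0.08 (SE 0.16). Cxcr7 was at -0.22, -0.61 and -0.55 in the VND3207 mice, against -0.65, -0.93 and -0.80 in the vehicle mice, a difference of 0.34 (SE 0.15, adjusted p = 0.208), which passed with scaling to the array median (0.63, adjusted p = 0.0278). Cxcr4 differed by 0.12 (SE 0.27, adjusted p = 0.831). The epithelial ligand Cxcl14 differed by 0.22 (SE 0.16, adjusted p = 0.466). Ccr6 differed by -0.12 (SE 0.20, adjusted p = 0.758), while Ccl20, its ligand over follicles, and Cxcl17 were not well above background on any array. Of the 3 Ccl27a probes, with 0.17, -0.09 and -0.25, 0 passed, and the first did with scaling to the array median (0.47, adjusted p = 0.0382).

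The membrane-bound ligands Cx3cl1 and Cxcl16 had differences near 0 under the 75th percentile scaling. With scaling to the array median they were at 0.34 and 0.33, and neither passed. Cx3cl1, fractalkine, was at 4.51, 4.82 and 4.66 in the VND3207 mice, against 4.59, 4.65 and 4.62 in the vehicle mice. The groups overlapped, and the difference of 0.04 had a 95% confidence interval of -0.23 to 0.32. The probes of its receptor Cx3cr1, carried by intestinal macrophages, differed by 0.19 (SE 0.15) and 0.02 (SE 0.19), and the first passed with scaling to the array median (0.49, adjusted p = 0.0479). Cxcl16 differed by 0.03 (SE 0.17, adjusted p = 0.939), with a wider interval of -0.38 to 0.43. Its receptor Cxcr6, found on intraepithelial and memory T cells, read -0.48, -0.64 and 0.06 in the VND3207 mice, against -0.69, -0.65 and -0.71 in the vehicle mice, a difference of 0.33 (SE 0.19, adjusted p = 0.349). The second Cxcr6 probe, which shares 50 of its 60 bases with the first and so is not an independent reading, differed by 0.21 (SE 0.14). Both passed with scaling to the array median (adjusted p = 0.0478 and 0.0362). Xcl1, a ligand made by T and NK cells, differed by 0.04 (SE 0.25), and its receptor Xcr1 on dendritic cells was not well above background on any array. T and NK cell markers held 1 call among 10, Cd4, which fell by 1.18 (SE 0.15, adjusted p = 0.0052), with Cd3e at 0.04 and Cd8a at 0.25. Cd4 was read by the brighter of its 2 probes, whose sequence was not searched for shared stretches. Of the 10 markers, 9 lay above 0. Cd8b1 was at 0.97 (adjusted p = 0.087) and rose by 1.23 after quantile normalization (adjusted p = 0.0475), and Gzmb was at 0.61 (adjusted p = 0.166). Their median was 0.26, and their summed linear signal was 132 to 190 times the 75th percentile on the VND3207 arrays and 145 to 174 times on the vehicle arrays.

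Many chemokine genes lie in clusters, and neighbours can be read side by side. On chromosome 11 (mm9), the 5 probes of Ccl5, Ccl9, Ccl6, Ccl3 and Ccl4 between 83339296 and 83478111 had differences of 0.11 to 0.41, and 0 passed. In the other chromosome 11 cluster, from 81850650 to 81990227, the 5 probes tested for Ccl2, Ccl7, Ccl11, Ccl12 and Ccl8 had differences of -0.13 to 0.25, and 0 passed. On chromosome 5, the 2 probes tested between 91190490 and 91334593, for Cxcl5 and Cxcl15, did not pass. The cluster of Cxcl9, Cxcl10 and Cxcl11 between 92752191 and 92788699 had differences of -0.75 to 0.42, with the bright Cxcl11 probe its only call. In the receptor cluster of chromosome 9 between 123680935 and 124041306, 1 of 6 probes tested passed, that of Ccr3. These counts stand beside 0.925% of all probes called higher and 14.6% called lower, and 20.3% of the dimmer ones called lower.

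Promoter sequence was set beside these values. RefSeq windows from 250 bases before to 50 bases after the gene start (GRCm38.p6) were found for 42 starts of the chemokine and receptor genes. A core of the interferon-stimulated response element, GAAANNGAA, searched on both strands, was in 8 of the 42 windows (19.1%), for Ccl1, Ccl3, Ccl19, Ccr2, Cxcl9, Cxcl10, Cxcl14 and Cxcr1, and in 8.56% of all 32851 windows. A core of the kB site, GGGANTTTC, which overlaps no position of the other motif in the windows shown, was searched likewise. It was in 6 windows (14.3%), for Ccr3, Cxcl1, Cxcl2, Cxcl3, Cxcl9 and Cxcr2, and in 1.11% of all windows. Of the genes named here for either motif, Ccr3 alone had a called probe. The windows of Cxcl10, Cxcl1 and Ccr3 are shown with the motif in capitals, which starts 213 bases before the gene start for Cxcl10, 71 for Cxcl1 and 178 for Ccr3, where it lies on the opposite strand. A match is a description of the letters and says nothing of binding. Only these exact patterns were searched, so a window without a match may hold another form of either site.
Cxcl10, chr5:92348840-92349139, minus strand: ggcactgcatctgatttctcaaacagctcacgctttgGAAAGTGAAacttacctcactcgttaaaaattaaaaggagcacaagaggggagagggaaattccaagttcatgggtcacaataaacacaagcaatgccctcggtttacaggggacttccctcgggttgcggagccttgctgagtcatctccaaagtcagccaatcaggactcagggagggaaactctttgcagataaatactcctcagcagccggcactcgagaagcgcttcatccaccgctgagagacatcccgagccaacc
Cxcl1, chr5:90890995-90891294, plus strand: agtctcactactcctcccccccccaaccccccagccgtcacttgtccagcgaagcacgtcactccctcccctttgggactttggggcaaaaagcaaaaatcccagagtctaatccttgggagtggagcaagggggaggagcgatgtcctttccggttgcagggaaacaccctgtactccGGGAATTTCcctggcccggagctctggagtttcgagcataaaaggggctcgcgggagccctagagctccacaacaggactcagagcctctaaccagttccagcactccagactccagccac
Ccr3, chr9:124021721-124022020, plus strand: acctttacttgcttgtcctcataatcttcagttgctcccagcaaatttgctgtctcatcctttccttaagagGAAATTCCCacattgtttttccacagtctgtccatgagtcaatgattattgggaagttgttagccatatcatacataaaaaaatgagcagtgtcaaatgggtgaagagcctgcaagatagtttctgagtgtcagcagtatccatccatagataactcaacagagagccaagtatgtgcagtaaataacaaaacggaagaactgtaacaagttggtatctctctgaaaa

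Other genes that act around chemokines are given by list, beside 15.5% of all probes called in either direction. Of 17 NF-kB and cytokine genes tested, 0 passed, with a median of -0.03, and Tnf differed by -0.28 (adjusted p = 0.164), Il1b by -0.26 (adjusted p = 0.613) and the feedback inhibitor gene Nfkbia by -0.01 (adjusted p = 0.976). Of 5 atypical receptors 1 passed, Ccrl2, which binds chemerin without signalling. It was at -2.16, -2.20 and -1.93 in the VND3207 mice, against -1.49, -1.48 and -1.64 in the vehicle mice, and fell by 0.56 (SE 0.12, adjusted p = 0.0245), a call lost after quantile normalization (adjusted p = 0.0767) and the correction (adjusted p = 0.147). Of 7 platelet and other chemokines outside the naming rule 0 passed. Of 21 signalling genes downstream of the receptors 1 passed. Plcb2, a phospholipase C gene of blood cells, was at -2.74, -3.66 and -2.64 in the VND3207 mice, against -1.67, -1.58 and -1.61 in the vehicle mice, and fell by 1.39 (SE 0.28, adjusted p = 0.0206), also after the correction (-1.07, adjusted p = 0.0378).

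Of 16 leukocyte adhesion genes 0 were higher and 2 were lower, a share near the 14.6% of all probes called lower. Pecam1, an endothelial junction gene, fell by 0.56 (SE 0.10, adjusted p = 0.0135), a call lost after the correction (-0.24, adjusted p = 0.214). Itgam, the myeloid integrin gene, fell by 0.75 (SE 0.18, adjusted p = 0.0421) and was also lower after the correction (-0.88, adjusted p = 0.0229), but not after quantile normalization (-0.72, adjusted p = 0.0501). Icam1, which holds leukocytes to activated endothelium, differed by 0.56 (SE 0.21, adjusted p = 0.145) and rose by 0.87 after the correction (adjusted p = 0.048). Madcam1, the gut vascular ligand of homing lymphocytes, differed by -0.11 (adjusted p = 0.656). Stromal and endothelial markers had a median of 0.11, with Pecam1 and Kdr lower of 7, and 0 lower after the correction.

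**Figure D5:**
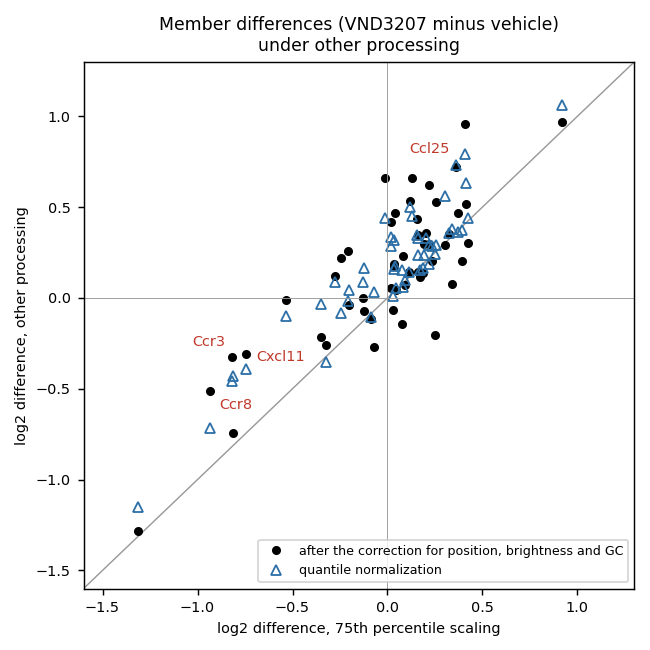
The log2 difference, VND3207 minus vehicle, of each of the 52 probes under the 75th percentile scaling (horizontal) is plotted against its value after the correction for position, brightness and GC content (black) and after quantile normalization (blue triangles). Most points lie above the diagonal. The Cxcl11, Ccr8 and Ccr3 probes stay below 0 and are nearer to 0, and Ccl25 probe A_55_P1965979 is at 0.72 after the correction, against 0.36 before it.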

How the data were processed

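Total RNA of the jejunum of 3 mice given VND3207 and 3 given the vehicle was hybridised to 1-colour arrays, 1 array a mouse. Agilent Feature Extraction 10.7.1.1 wrote the scanner files, per the file headers. The deposited intensity values used were its processed signal, the Cy3 signal of a spot after background subtraction and detrending, per the file headers. A deposited table gives log2 values with a median of 6.05 in every column. How the authors made it is not given in the sources used here, and each column had an r of 0.997 to 1.000 with its array's processed signal in log2.

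Control spots and outlier spots were left out, spots of a probe were averaged, and the 75th percentile of each array was subtracted on the log2 scale. Probes well above background on at least 3 of 6 arrays, whatever the group, were tested 2-sided in R 4.3.3 with limma 3.58.1 (lmFit, then eBayes). The model held the group alone, p-values were adjusted over 36096 probes by the Benjamini-Hochberg method, and the threshold was 0.05. Errors are limma's moderated standard errors, unless called SD. No spot was saturated, and the number of arrays limits the precision. With 3 mice against 3, an exact permutation test of a single value cannot go below p = 0.10. Outside the chemokine names, which are the array's own, genes were named by RefSeq accession (26582 probes) or symbol, and each list gene by its brightest probe. The steps were tested on simulated data.

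The chemokine genes, their roles, the other lists and the tests were chosen with earlier results of these data known. Every chemokine and receptor probe is counted, and the values of a few genes are not reported here. Values in all arrays are given for probes past the threshold and for the main ligand and receptor sets, and up to 4 genes are named in the other lists, with further ones chosen after their values were seen. Trends with position, brightness and GC content were fitted with mgcv 1.9.3, and removing them can take away true differences that run along the same trends. The other alternatives were quantile normalization, scaling to the array median, normexp (offset 50), the deposited table, other filters, 1 probe a gene, another variance model, a replicate block, each array left out in turn and other thresholds. Slide and scan could not be fitted because each holds 1 group. The deviations of same-numbered mice from their group means correlated at 0.13, -0.11 and -0.05, so the replicate numbers were not taken to pair the mice.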

Additional observations from a re-analysis of the deposited data

How the results depend on the processing

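Calls on the chemokine and receptor probes, 0 higher and 3 lower, became 1 higher and 2 lower after quantile normalization, 10 higher with scaling to the array median, 2 higher and 1 lower in the deposited table, 1 higher and 0 lower after the correction for position, brightness and GC content, and 5 lower at an adjusted p threshold of 0.10. Leaving out 1 array gave 0 higher and 1 to 3 lower, with 1 lower without vehicle replicate 2. Over all probes, 334 higher and 5257 lower became 851 and 3255 after quantile normalization, 6625 higher with scaling to the array median (3823 lower), 2849 lower with normexp, 919 and 3175 in the deposited table, 662 higher with no filter on dim probes, 2923 lower with probes well above background on all 6 arrays, 1002 and 2391 after the correction, and 50 and 2530 at a threshold of 0.01. Leaving out 1 array gave 124 to 287 higher and 2957 to 5069 lower, with 124, 149, 161 and 181 higher without VND3207 replicates 1 and 2 and vehicle replicates 2 and 3, and 2957 lower without vehicle replicate 2. The replicate block, where the numbers do not pair the mice, gave 143 higher and 3408 lower over all probes and 1 lower among the chemokine and receptor probes. No called chemokine or receptor probe changed sign under any alternative run, and the causes were not tested. Of the 52 differences, 7 changed sign after the correction and 9 with scaling to the array median, none of them called under the 75th percentile scaling. Signal over background limits the 10 genes with no probe well above background on any array, and Ccr4, Cxcl1 and Cxcr5, which were detected on some arrays and not tested.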

Other observations

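Values of chemokine and receptor probes that were not tested belong in no comparison. Ccr4 was at -5.95, -5.98 and -6.97 in the VND3207 mice, against -5.12, -7.63 and -6.58 in the vehicle mice, and vehicle replicate 1 alone was well above background. Cxcl17 was at -6.66, -7.03 and -6.79 in the VND3207 mice, against -5.61, -5.89 and -6.22 in the vehicle mice, none of them well above background. The mast cell protease gene Cpa3, outside the family, was at -2.73 in VND3207 replicate 1, where it was well above background. It was at -7.01 and -6.93 in the other VND3207 mice, against -5.69, -7.17 and -6.81 in the vehicle mice. That was the mouse in which Cxcl13, Cxcr5 and Ms4a1 were highest, and the relation was not tested.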
